A study of Mus musculus and Homo sapiens with 60 samples.

Results

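The Hox genes of the mouse stand in 4 clusters, and the peaks of ChIP-seq lists in those clusters are described here. A peak was a member if it overlapped, by at least 1 base, one of 4 windows on the mm9 genome: HoxA, chr6:52080001-52240000 (160 kb), HoxB, chr11:96020001-96240000 (220 kb), HoxC, chr15:102740001-102900000 (160 kb), and HoxD, chr2:74480001-74630000 (150 kb). Of 1298213 peaks in 44 mouse lists, 711 were members, or 0.0548% of the peaks in 0.0261% of the genome length used. By antibody, 304 were H3K4me1 peaks, 198 H3K4me3 peaks, 92 Myc peaks, 59 H3K27ac peaks and 58 RNAPII (RNA polymerase II) peaks. No gene annotation of mm9 was used, so peaks are placed by coordinates and by distance from the start of their window, not by gene. For the same reason the labelled cell types were not checked against the promoters of marker genes.

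The fibroblast lists came from 3T9 cells, a line grown from embryonic fibroblasts of mixed strain, with c-myc flox/flox alleles that every fibroblast list shares. In 10 lists the cells had been infected in vitro with MycER, a Myc protein that 4-hydroxytamoxifen (OHT) switches on, and were given ethanol (0 h) or 400 nM OHT (4 h). The other 3 fibroblast lists hold Myc alone, from uninfected cells starved without serum for 48 h (0 h) and then given 10% serum for 1 or 2 h. The 31 B cell lists came from C57BL/6 mice: lymph node tumours and spleens carrying the Eu-myc transgene (Tg), and wild-type spleens (WT). The transgene drives Myc from an immunoglobulin heavy chain enhancer in B cells. Spleen B cells were enriched with B220 beads from animals of 6 to 8 weeks, while the tumours were pressed out of lymph nodes and not purified, so that other cells of the node may be in them. Both the native protein and MycER can be read by the Myc antibody, N262. Whether libraries with the same number but different antibodies came from 1 animal is not given in the labels.

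Hox genes code for homeodomain transcription factors that set position along the body axis, and within each cluster the order of the genes follows the order in which they are used from head to tail. Clusters that are off are usually kept so by Polycomb proteins with H3K27me3, which was not among the antibodies, and clusters in use carry H3K4me3 and H3K27ac over long stretches rather than at single starts. Fibroblasts keep a Hox code of the body site they came from. In blood cells HoxA and HoxB genes are active in stem and progenitor cells and are turned down as B cells mature, and HoxA genes are often switched on in leukaemia. H3K4me3 marks gene starts, H3K4me1 enhancers and the flanks of starts, and H3K27ac starts and enhancers in use. Myc, with its partner Max, prefers the E-box CACGTG but is found at most open gene starts.

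RefSeq's gene table of the newer build GRCm38.p6 was used for order only. It lists 39 protein-coding Hox genes: 11 in HoxA, 10 in HoxB, 9 in HoxC and 9 in HoxD. Along rising coordinates HoxA ends with Hoxa13, while HoxB runs from Hoxb13 to Hoxb1, HoxC from Hoxc13 to Hoxc4, and HoxD from Hoxd13 to Hoxd1. The genes of HoxA span 105.5 kb in that build and those of HoxB 173.9 kb.

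RefSeq promoters of GRCm38.p6, each 300 bases long (from 250 before to 50 after a gene's start), were matched for 22 of the 39 Hox genes, with 24 promoters. The E-box CACGTG, which reads the same on both strands, was in 5 of these 24, against 7.15% of all 32851 promoters of this length. All 5 were among the 10 HoxD promoters, and none was among the 10 of HoxA, the 3 of HoxB or the 1 of HoxC. With so few promoters of HoxB and HoxC, only HoxA and HoxD can be set side by side. Between HoxA and HoxD the Myc peaks had the other distribution, as described below: 57 of the 92 lay in HoxA and 1 in HoxD. Of the HoxA peaks 30 came from MycER lists and 17 from the serum series. Tumour Myc peaks numbered 24 in HoxB, 9 in HoxA, 8 in HoxC and 1 in HoxD. The 5 promoters with the E-box, which is in capitals, and 1 HoxA promoter without it are printed so that both kinds can be read. They are given 5′ to 3′ on the gene's strand, and the last, Hoxa13, was chosen as the HoxA promoter with the most CpG, 45 in its 300 bases.
Hoxd13 (chr2:74667975-74668274, + strand): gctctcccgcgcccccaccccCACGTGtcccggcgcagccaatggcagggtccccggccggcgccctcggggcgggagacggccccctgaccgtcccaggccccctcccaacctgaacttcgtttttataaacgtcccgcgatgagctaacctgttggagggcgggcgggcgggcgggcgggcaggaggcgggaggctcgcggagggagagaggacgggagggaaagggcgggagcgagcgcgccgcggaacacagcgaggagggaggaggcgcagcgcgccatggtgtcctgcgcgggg
Hoxd11 (chr2:74682073-74682372, + strand): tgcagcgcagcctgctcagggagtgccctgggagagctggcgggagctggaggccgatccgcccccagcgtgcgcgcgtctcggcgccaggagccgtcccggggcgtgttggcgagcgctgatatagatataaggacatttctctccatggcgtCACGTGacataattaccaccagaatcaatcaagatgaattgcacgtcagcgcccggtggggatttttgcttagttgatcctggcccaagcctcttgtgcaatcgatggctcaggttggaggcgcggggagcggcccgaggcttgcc
Hoxd10 (chr2:74691641-74691940, + strand): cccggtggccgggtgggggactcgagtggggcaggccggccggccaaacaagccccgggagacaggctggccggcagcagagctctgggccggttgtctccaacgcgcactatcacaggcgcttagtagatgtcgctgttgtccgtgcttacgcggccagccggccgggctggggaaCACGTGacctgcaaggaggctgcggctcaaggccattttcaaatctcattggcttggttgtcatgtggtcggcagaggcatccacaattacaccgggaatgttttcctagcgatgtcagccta
Hoxd4 (chr2:74721728-74722027, + strand): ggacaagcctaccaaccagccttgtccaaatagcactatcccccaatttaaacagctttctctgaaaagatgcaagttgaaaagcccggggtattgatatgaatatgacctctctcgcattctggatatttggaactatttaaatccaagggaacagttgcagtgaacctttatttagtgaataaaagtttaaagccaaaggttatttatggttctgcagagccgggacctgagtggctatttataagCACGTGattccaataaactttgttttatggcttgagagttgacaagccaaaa
Hoxd1 (chr2:74762730-74763029, + strand): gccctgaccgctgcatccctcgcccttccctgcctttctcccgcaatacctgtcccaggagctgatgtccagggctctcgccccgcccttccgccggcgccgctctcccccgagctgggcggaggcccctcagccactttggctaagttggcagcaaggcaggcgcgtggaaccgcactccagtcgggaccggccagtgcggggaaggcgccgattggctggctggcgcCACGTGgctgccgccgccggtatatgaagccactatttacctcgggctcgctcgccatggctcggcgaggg
Hoxa13 (chr6:52260831-52261130, - strand): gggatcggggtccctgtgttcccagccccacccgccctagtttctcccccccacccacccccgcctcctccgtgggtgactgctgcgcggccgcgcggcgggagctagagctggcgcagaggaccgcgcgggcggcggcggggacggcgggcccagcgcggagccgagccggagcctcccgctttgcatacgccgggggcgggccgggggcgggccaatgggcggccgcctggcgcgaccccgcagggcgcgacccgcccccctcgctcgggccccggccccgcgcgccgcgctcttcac
The letters of a promoter are a description and not a binding site, and no letters of the peaks themselves are shown, since no genome of the peaks' build was used. Hox promoters held a median of 14.5 CpG against 7 for all promoters.

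The values are positions and scores of peaks that the authors called one library at a time, without counts, so the reads behind a peak are unknown. Cover is used below for the percentage of a window's bases that lie under at least 1 peak. Cover grows with the number and the width of called peaks, and both can change with depth as well as with chromatin. Lists held 5246 to 77144 peaks and no pair of lists was identical. In bulk chromatin, fewer cells with a mark and less of the mark in each cell cannot be told apart. The spleen H3K4me1 libraries numbered 2 stood apart at the Hox clusters. Their cover over the 4 windows was 2.00% (Tg) and 4.25% (WT), while the spleen libraries numbered 1 had 16.9% (Tg) and 14.9% (WT). Genome-wide the gap was smaller, 4.49% (Tg) and 5.84% (WT) in the libraries numbered 2, and 6.92% (Tg) and 6.25% (WT) in those numbered 1.

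**Figure D1:**
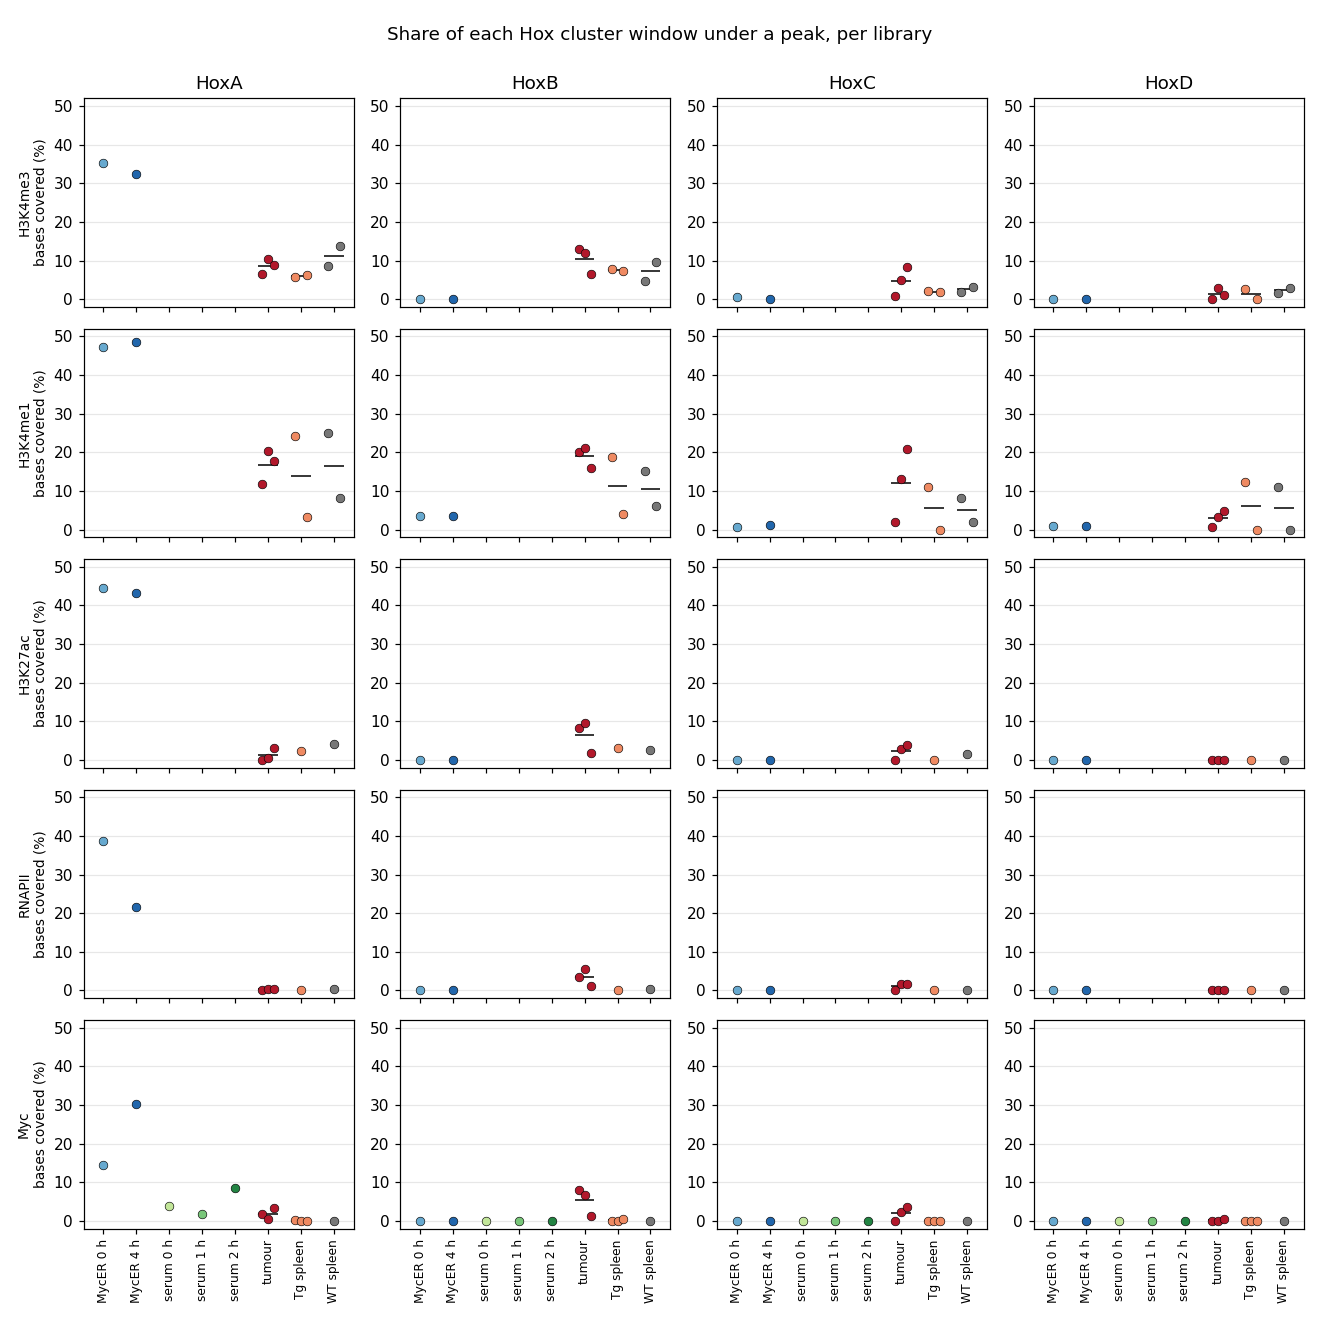
Percentage of the bases of each Hox window (columns) under a peak, for each antibody (rows); every point is 1 library, black lines are means of groups with more than 1 library, and the serum series has Myc only. Fibroblast points are high in HoxA, up to 48.6% for H3K4me1, and at or near 0 in the other 3 windows. Tumour and spleen points are spread over HoxA, HoxB and HoxC, with H3K4me1 and H3K4me3 also in HoxD in some libraries.

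In fibroblasts nearly the whole of the signal at the Hox genes was in HoxA. Of 138 peaks in the 10 MycER lists, 120 lay in HoxA, and all 17 Myc peaks of the serum series lay there too. The exceptions were 17 H3K4me1 peaks (11 in HoxB, 3 in HoxC, 3 in HoxD) and 1 narrow H3K4me3 peak in HoxC at 0 h, chr15:102828981-102829901. H3K27ac, RNAPII and Myc had no fibroblast peak in HoxB, HoxC or HoxD.

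H3K4me3 covered 35.2% of HoxA in fibroblasts at 0 h and 32.3% at 4 h, against 8.51% and 13.9% in the 2 WT spleen libraries. For H3K27ac the cover of HoxA was 44.6% at 0 h and 43.2% at 4 h, and it was 4.20% in the WT spleen library. RNAPII covered 38.7% of HoxA in fibroblasts at 0 h, against 0.316% in the WT spleen library. In each of these antibodies both fibroblast values stood above all Eu-myc libraries, of which the highest had 13.9% for H3K4me3, 4.20% for H3K27ac and 0.424% for RNAPII. H3K4me1 covered 47.3% of HoxA at 0 h and 48.6% at 4 h in fibroblasts, against 24.9% and 8.12% in WT spleens. Here too both fibroblast values stood above all Eu-myc libraries. With 1 fibroblast library per antibody and time, no test was made.

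The rest of the Hox windows went the other way for H3K4me3. HoxB had 0% cover in both fibroblast lists, against 4.76% and 9.68% in WT spleens, and every Eu-myc library had 7 or more H3K4me3 peaks there. HoxC had 0.576% at 0 h and 0% at 4 h in fibroblasts, against 1.91% and 3.10% in WT spleens. Of the 50 merged H3K4me3 regions of B cells and tumours, fibroblast peaks at 0 h overlapped 12 of 17 in HoxA (70.6%), 0 of 19 in HoxB, 1 of 9 in HoxC and 0 of 5 in HoxD, against 43.6% of 27052 such regions over the genome.

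In MycER fibroblasts 4 of the 5 antibodies shared a start, and most lists shared an end. H3K4me3 ran from 27.1 to 111.1 kb of the window at 0 h and from 27.2 to 110.9 kb at 4 h, and H3K27ac from 27.1 to 111.4 kb at 0 h. RNAPII and Myc peaks began at 27.8 and 27.9 kb at 0 h, and both ended at 110.9 kb. At 4 h Myc ended at 111.2 kb, but the last RNAPII peak ended at 104.0 kb. H3K4me1 began further out, at 20.2 kb at 0 h and 20.1 kb at 4 h, and ended at 124.1 kb at 0 h and 111.4 kb at 4 h. Beyond 112 kb, toward the end of the window on the Hoxa13 side, the only fibroblast peak was 1 of H3K4me1 at 0 h. B cells and tumours, in contrast, had H3K4me3 up to 132.6 kb and H3K4me1 to the end of the window. In the region of 129.7 to 132.6 kb H3K4me3 was found in all 3 tumours and 1 Tg spleen library.

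**Figure D2:**
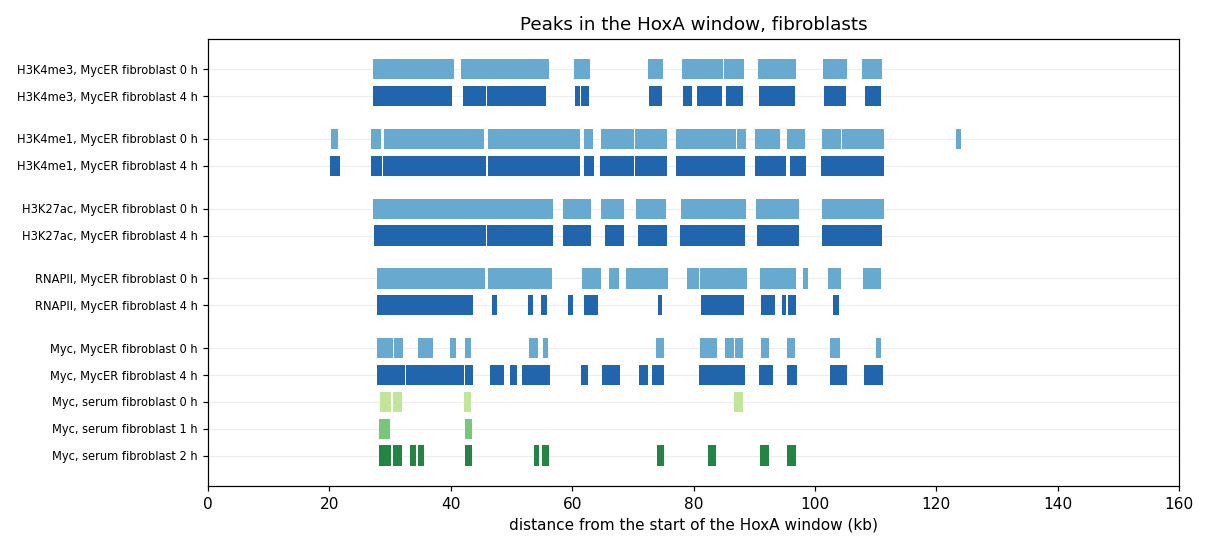
Peaks of each fibroblast list along the HoxA window, as distance in kb from the window's start; each row is 1 library and each bar 1 peak. In MycER cells the bars of H3K4me3, H3K27ac, RNAPII and Myc begin near 27 kb and, except for RNAPII at 4 h, end near 111 kb, H3K4me1 begins near 20 kb, and the Myc bars are longer at 4 h of OHT.

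The H3K4me3 peaks of fibroblasts in HoxA were wide rather than many, with 11 at 0 h against 9 and 10 in WT spleens. The other antibodies except H3K4me1 had more peaks there as well. At 0 h H3K27ac had 7 against 4 in the WT spleen, RNAPII 11 against 1 and Myc 15 against 0. H3K4me1 had 16, against 19 and 6 in the WT spleens. The widest H3K4me3 peak was 13.4 kb long, and next to it a pair of peaks took the mark on to 56.2 kb. Of the 12 H3K4me3 peaks at 0 h in the 4 windows, 11 of them in HoxA, 6 were at least 4 kb wide, against 9.95% of all peaks in that list. H3K27ac formed 1 peak of 29.8 kb at 0 h, from 27.1 to 56.9 kb, and 6 of its 7 peaks were at least 4 kb wide, against 20.9% in its list. No H3K4me3 or H3K27ac peak of a spleen library in the 4 windows was that wide. The widest of WT spleens in HoxA, chr6:52161330-52164194, was 2.87 kb long, and that in HoxB, chr11:96178655-96181976, was 3.32 kb. In HoxC the widest was chr15:102806741-102808785 and in HoxD chr2:74495061-74496619. Over the 4 windows together, the H3K4me3 difference between fibroblasts at 0 h and WT spleens was 2.31 percentage points. With every peak set to 500 bases it turned to -0.870. The 4 windows held 12 fibroblast peaks, with 0 in HoxB, against 21 and 27 in WT spleens, so this value does not describe HoxA alone.

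Cut into tiles of 10 kb, HoxA held tiles marked in both MycER fibroblast libraries and in no Eu-myc library. For RNAPII there were 8 such tiles among the 69 Hox tiles (11.6%), where 1.56% of all 264085 genome tiles met that rule. H3K27ac had 6 (8.70%) with a background of 5.47%, and Myc had 6 (8.70%) with 2.16%. H3K4me3 and H3K4me1 had 2 each (2.90%), with backgrounds of 0.414% and 9.32%. The H3K4me1 share thus lay below its background. The H3K27ac share was nearer to its background than those of RNAPII and Myc. All of these tiles were among the 16 of HoxA. The H3K4me3 count became 7 if only peaks at or above the median score were used, and 5 with equal numbers of peaks. No genome share under these altered rules is given, so the 7 and the 5 have no background beside them. The reverse rule was a peak in every Eu-myc library and in neither fibroblast library. For H3K4me3 it was met by 4 of the 69 tiles (5.80%, 3 in HoxB, 1 in HoxC), with a background of 0.978%.

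At 0 h the Myc peaks of fibroblasts sat inside the marked domain. Of the 23.1 kb under Myc peaks, 100% was under H3K27ac, 99.6% under RNAPII, 97.8% under H3K4me3 and 97.1% under H3K4me1. Stretches with all 5 antibodies made up 21.8 kb, or 13.6% of the window.

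Between 0 h and 4 h of OHT the Myc peaks in HoxA were equal in number but covered more bases at 4 h. There were 15 Myc peaks at 0 h and 15 at 4 h, and cover was 14.4% at 0 h and 30.4% at 4 h. Of the bases bound at 0 h, 99.95% stayed under a peak at 4 h, and 25.5 kb was added. The median width was 1425 bases at 0 h and 2323 bases at 4 h in HoxA, and 1334 and 1550 bases over the whole lists. The 15 peaks of 0 h fell on 10 peaks of 4 h, so the 4 h widths include neighbouring peaks that were joined. The bound length in HoxA was 2.10 times as long at 4 h as at 0 h, and over the genome it was 1.84 times as long. There was no replicate of either time, so this gap between HoxA and the genome has no test.

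Of the 15 Myc peaks at 4 h, 10 overlapped a peak of 0 h and 5 did not. The 5 were chr6:52145001-52147864, chr6:52126476-52128798, chr6:52151038-52152435, chr6:52141510-52142632 and chr6:52129745-52130864. Their scores ran from 82.1 to 345.4, below those of the other 10 HoxA peaks, which reached 2673, and 1 of the 5, chr6:52126476-52128798, lay above the median score of its list, at its percentile 52.4. Only 1 of the 69 Hox tiles had a Myc peak at 4 h and none at 0 h, against a background of 3.73% of genome tiles. At 4 h 63.5% of the bases under Myc were under RNAPII, and 98.7% were under H3K27ac.

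RNAPII cover of HoxA was 38.7% at 0 h and 21.7% at 4 h. The 4 h length was 0.561 times that at 0 h in HoxA and 0.722 times over the genome. There were 11 RNAPII peaks at 0 h and 13 at 4 h, with median widths of 3074 and 978 bases in that order. Of the 11 peaks at 0 h, 7 overlapped a peak at 4 h and 4 did not, among them the last one, of 3.00 kb at 107.9 to 110.9 kb. From 46.1 to 56.7 kb a single peak of 10.6 kb at 0 h stood where 3 peaks of under 1 kb stood at 4 h. The 3 histone marks moved little, with 4 h to 0 h ratios of 0.918 for H3K4me3, 0.970 for H3K27ac and 1.03 for H3K4me1.

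In the serum series Myc was again in HoxA only, at fewer places. HoxA had 4 peaks at 0 h, 2 at 1 h and 11 at 2 h, with 6.00, 2.88 and 13.6 kb under Myc. The lists as wholes had 5832, 8105 and 16384 peaks, so that the 1 h list was larger than the 0 h list and had fewer peaks in HoxA. The bound length at 2 h was 2.27 times that at 0 h, and genome-wide the ratio was 3.23. With equal numbers of highest-scoring peaks the difference over the 4 windows turned from 1.11 to -0.869 percentage points, and none of the 2 h peaks in HoxA was then kept. All 17 serum peaks lay on H3K4me3, H3K27ac and RNAPII peaks of the MycER cells at 0 h.

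The MycER and the serum lists shared a core of Myc binding in HoxA. The most Myc libraries at any region were 5 of 12, reached at 3 regions. A pair of them, of which one was chr6:52112675-52123658, were bound in all the fibroblast lists and in no Eu-myc list. The third, chr6:52160980-52168510, was bound in both MycER lists, in the serum lists of 0 h and 2 h and in 1 tumour, and not in the serum list of 1 h. The region at 61.5 to 62.7 kb behaved differently. It had Myc in all 3 tumours and in fibroblasts at 4 h, and in none of the 4 spleen libraries, the fibroblasts at 0 h or the serum series. Its Myc score was 81.4 in tumour 1 and 94.0 in tumour 2, near the lowest score of any list, 80.01. In tumour 3 it was 289.

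In tumours the Hox signal was not in one cluster. Of 311 tumour peaks, 144 lay in HoxB, 88 in HoxA, 61 in HoxC and 18 in HoxD. H3K4me3 cover over the 4 windows was 5.84%, 7.98% and 6.36% in tumours 1 to 3, against 4.94% and 4.22% in Tg spleens and 4.30% and 7.67% in WT spleens. The values overlapped. Tumours averaged 6.73% ± 1.12 (SD over 3 libraries) and spleens 5.28% ± 1.62 (SD over 4 libraries), and an exact two-sided permutation test gave p = 0.229. H3K4me1 had 13.3% ± 3.10 in tumours and 9.50% ± 7.47 in spleens (exact permutation p = 0.457). Without the spleen libraries numbered 2, which stood apart, the H3K4me1 difference turned from 3.82 to -2.56 percentage points.

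RNAPII and Myc separated the groups, though no such test could reach 0.05 with so few libraries. RNAPII cover over the 4 windows was 1.14%, 2.21% and 0.909% in tumours, against 0.0897% in the Tg spleen library and 0.175% in the WT spleen library. Every tumour stood above both spleens, and the exact permutation p of 0.2 is the smallest that 3 against 2 libraries allow. Myc cover was 2.98%, 2.78% and 2.20% in tumours, against 0.0610%, 0% and 0.165% in the 3 Tg spleens and 0% in the WT spleen. Tumours stood above the Tg spleens without overlap, by 2.58 percentage points, and the exact permutation p of 0.1 is the smallest for 3 against 3. H3K27ac also did not overlap, at 2.67%, 3.83% and 2.20% in tumours, against 1.54% in the Tg spleen and 2.20% in the WT spleen, though tumour 3 and the WT spleen were equal to 3 digits. After adjustment over the 5 antibodies all of these p-values were 0.286 or higher.

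The size of the lists moved with these results. The Myc lists of tumours held 27347 to 34142 peaks, against 5246 to 12985 in Tg spleens and 6978 in the WT spleen. RNAPII peaks covered 0.845% to 2.60% of the genome in tumours, against 0.421% in the Tg spleen and 0.676% in the WT spleen. Relative to its own genome-wide cover, Myc in the Hox windows was 1.06 to 1.67 times as dense in tumours and 0 to 0.424 times as dense in Tg spleens. By score within each list, the highest Myc peak of the 4 windows was at percentile 79.1 in tumour 1 and 89.3 in tumour 2. In tumour 3 it was at 89.1, in a peak that lies mostly past the end of the HoxA window. Few of the tumour peaks would thus be left in lists cut to 5246 peaks, the smallest Tg spleen list. The part of list size and peak number in the difference was not tested.

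**Figure D3:**
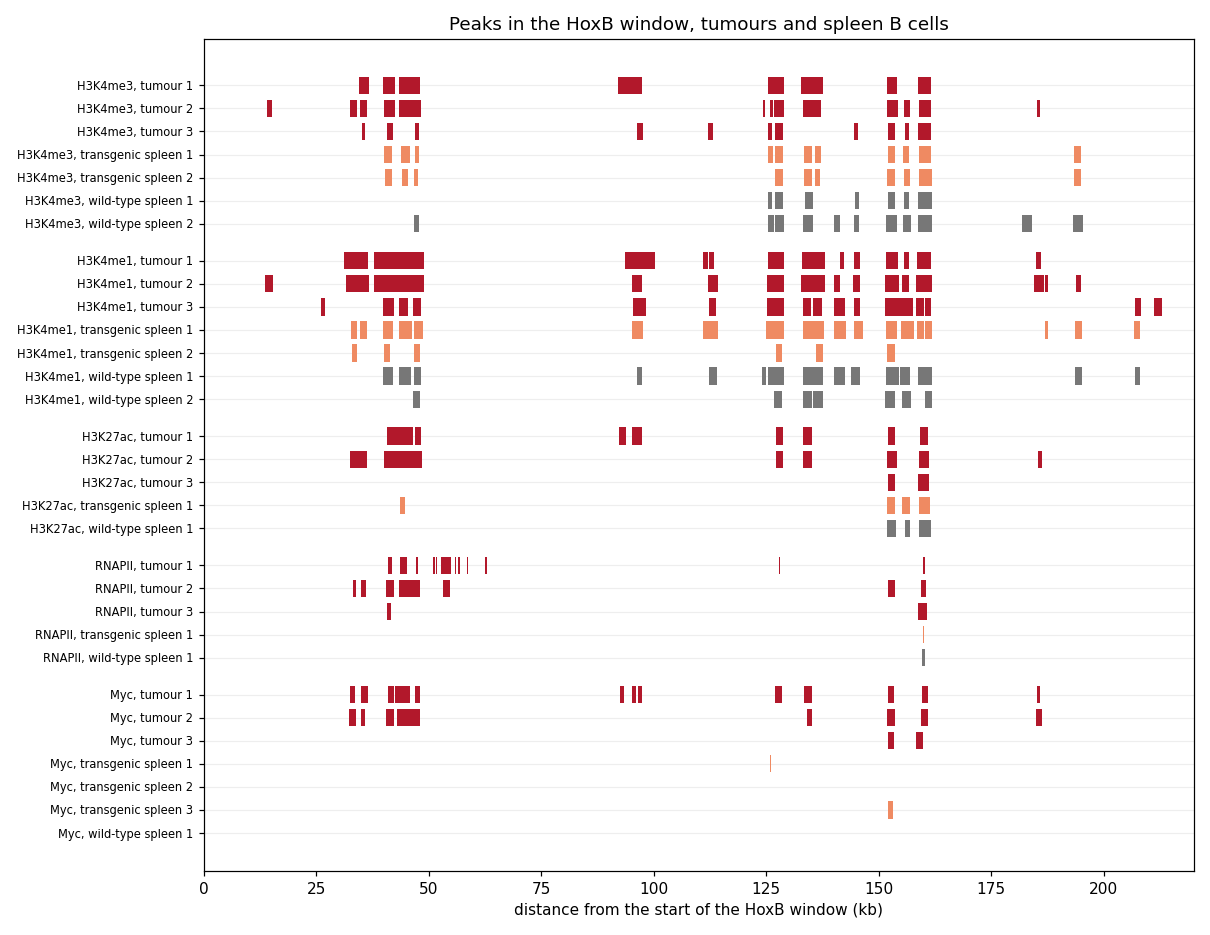
Peaks of each tumour and spleen list along the HoxB window, as distance in kb from its start, with 1 row for each library and 1 bar for each peak. Near 159 kb all 5 antibodies are present in every tumour, and between 39.8 and 48.2 kb long H3K27ac, RNAPII and Myc bars appear in tumours 1 and 2.

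HoxB held most of the RNAPII and Myc peaks of tumours 1 and 2. Of 30 tumour RNAPII peaks 24 were in HoxB, and of 42 tumour Myc peaks 24 were. These counts came mainly from tumours 1 and 2, with 14 and 8 RNAPII peaks and 14 and 8 Myc peaks in HoxB, against 2 and 2 in tumour 3. In tumour 3 HoxB held 18.9% of the Hox bases under Myc, less than HoxC with 39.0% and HoxA with 36.3%, and 44.8% of those under RNAPII. Myc cover of HoxB was 8.08%, 6.81% and 1.30% in tumours, against 0.0805%, 0% and 0.517% in Tg spleens. RNAPII cover of HoxB was 3.58%, 5.49% and 1.28% in tumours, against 0.141% in the Tg spleen and 0.320% in the WT spleen. Tumours stood above spleens for both, with tumour 3 nearest to them. Over 20 tests, 4 clusters by 5 antibodies, the lowest adjusted p was 0.762 (exact permutation tests with Benjamini-Hochberg adjustment).

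At the Hoxb1 side of the window, chr11:96178655-96181976 carried all 5 antibodies in every tumour. It also had H3K4me3 in all 4 spleens, and H3K27ac and RNAPII in both spleens where these were measured, but no Myc there. Next to it, chr11:96171850-96173677 was the HoxB region with Myc in the most libraries, 4 of 12, namely the 3 tumours and Tg spleen 3. The Myc region chr11:96178401-96181021 followed with 3 of 12, all of them tumours.

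Toward the Hoxb13 side, tumours parted from each other. From 39.8 to 48.2 kb, libraries of tumours 1 and 2 had all 5 antibodies. H3K27ac formed a peak of 8.48 kb in tumour 2 and one of 5.91 kb in tumour 1, and Myc one of 5.26 kb in tumour 2, chr11:96062887-96068150. Tumour 3 had H3K4me3, H3K4me1 and a weak RNAPII peak there, with no H3K27ac or Myc. Among spleens the stretch had H3K4me3 in both Tg libraries and WT 2, and H3K27ac as 1 narrow peak in the Tg spleen. In tumour 1, 8 further RNAPII peaks ran on from 50.9 to 62.9 kb, and tumour 2 had 1 in that stretch.

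One H3K4me3 region of the 50 was found in all 3 tumours and in no spleen library. It was chr11:96054569-96056741 in HoxB, at 34.6 to 36.7 kb. Only tumour 2 had all 5 antibodies on it, while tumour 1 had Myc and H3K4me1 beside H3K4me3, and tumour 3 had H3K4me3 alone. The H3K4me3 peak there was weak in tumour 3, with a score of 129.6, at percentile 14.0 of that list. In tumours 1 and 2 the scores were 489.5 and 1826. No region was in all 4 spleens and in no tumour. As tiles, 1 of 69 met the tumour rule for H3K4me3, with a background of 0.131%. For RNAPII 1 tile met it, with 1.14%, and for Myc 1 tile, with 1.63%, shares near those of the genome.

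**Figure D4:**
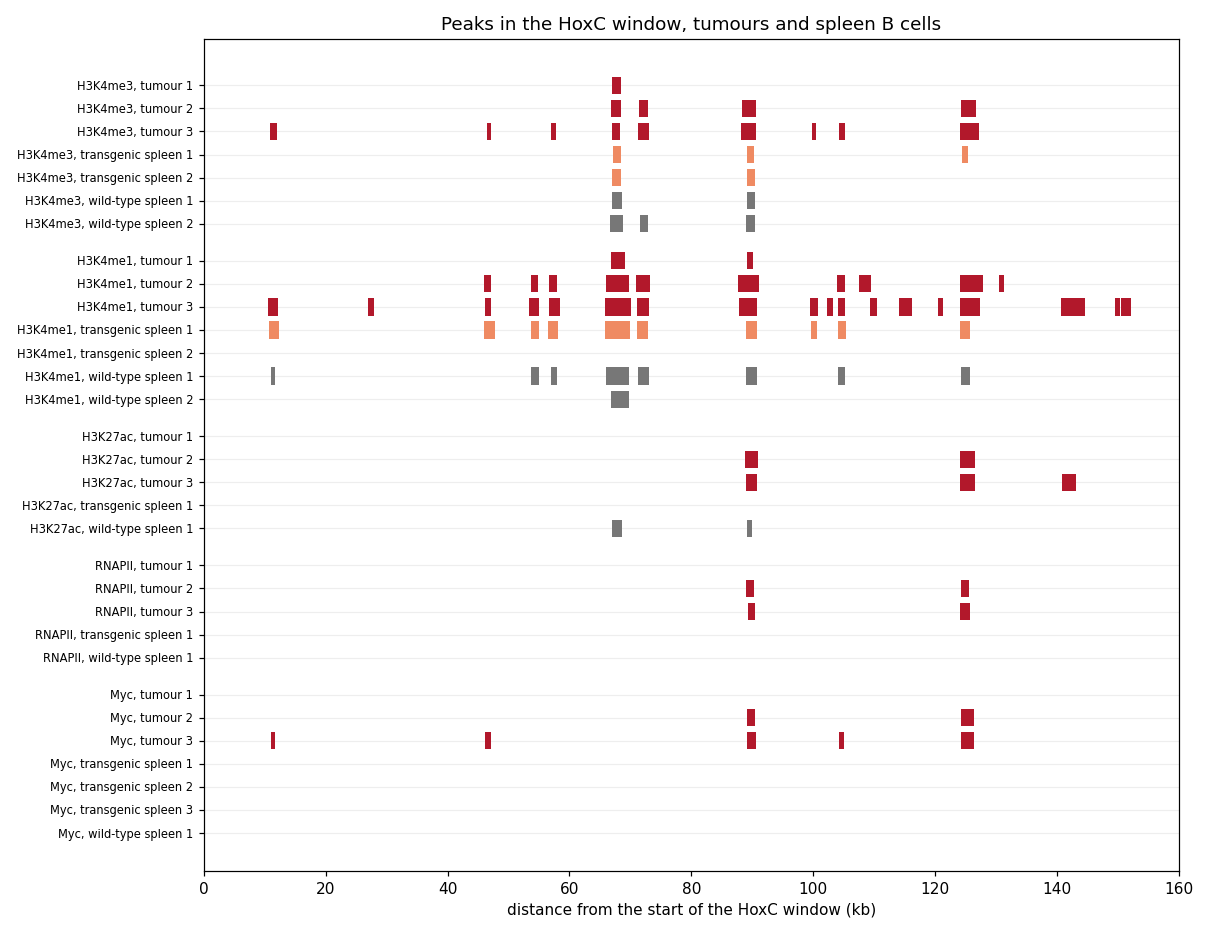
Peaks of each tumour and spleen list along the HoxC window, as distance in kb from its start, with 1 row for each library and 1 bar for each peak. Near 89 and 125 kb H3K27ac, RNAPII and Myc bars appear in tumours 2 and 3, and tumour 1 has no bar of these antibodies anywhere in the window.

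HoxC showed another split. RNAPII, H3K27ac and Myc had no peak in HoxC in tumour 1, whereas tumours 2 and 3 had them at a pair of regions. These were chr15:102829163-102830625 and chr15:102864196-102866440, each with Myc in 2 of 12 libraries and with all 5 antibodies in both tumours. In tumour 3 the H3K27ac peak on the second had a score of 3100, the value at which many scores stop, and its RNAPII score was 1506. Of the spleens, the WT library had a weak H3K27ac peak on the first, with a score of 100.9. H3K4me3 cover of HoxC was 0.934%, 4.99% and 8.38% in tumours, against 2.15% and 1.75% in Tg spleens and 1.91% and 3.10% in WT spleens. Thus tumours 2 and 3 stood above all spleens and tumour 1 below them.

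**Figure D5:**
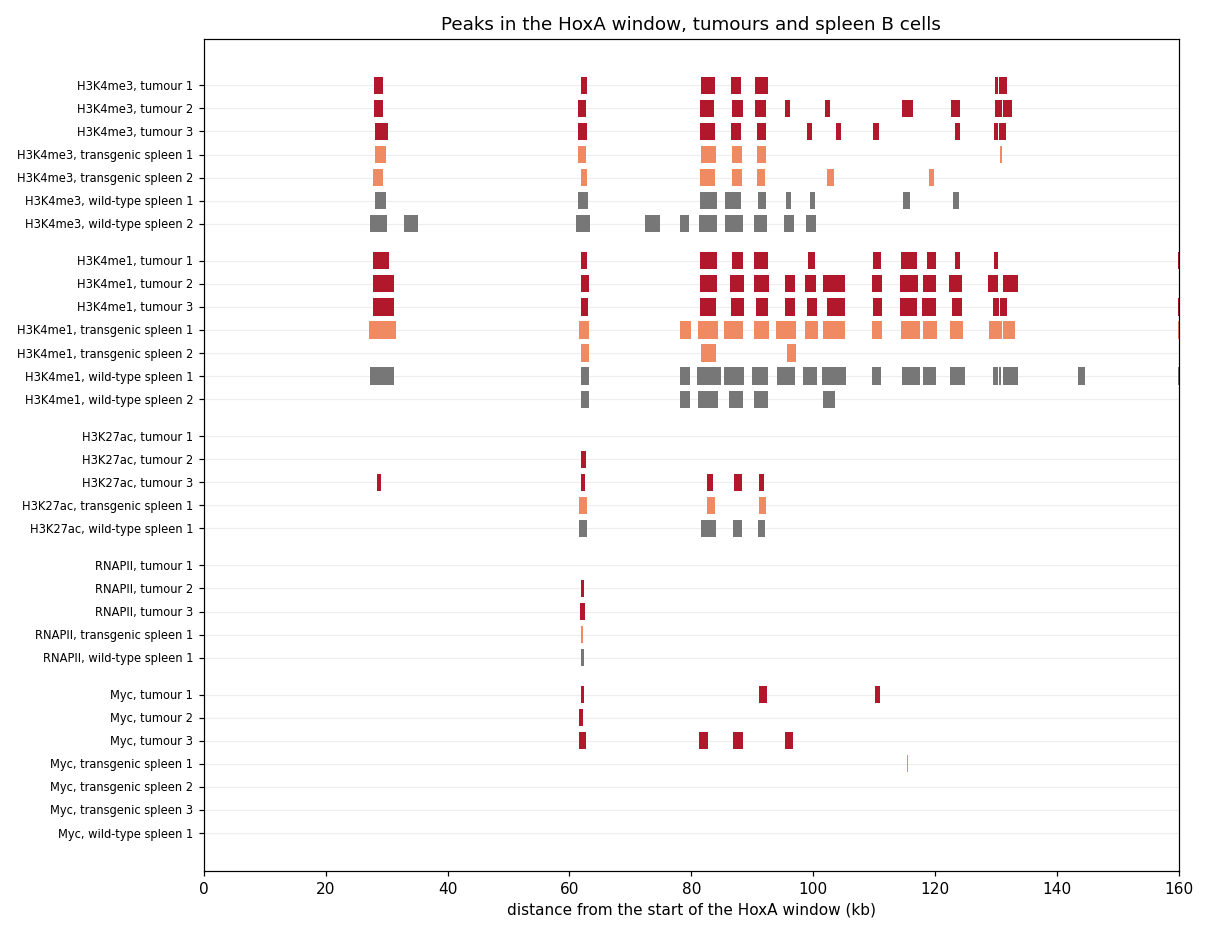
Peaks of each tumour and spleen list along the HoxA window, as distance in kb from its start, with 1 row for each library and 1 bar for each peak. H3K4me3 bars begin near 27 or 28 kb and the last ends between 100.4 and 132.6 kb. H3K4me1 bars reach the end of the window in tumours 1 and 3, Tg spleen 1 and WT spleen 1. In the spleen libraries numbered 2 they begin near 62 kb. RNAPII has a bar near 62 kb only.

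In HoxA tumours and spleens had H3K4me3 and H3K4me1 at more places than the other antibodies. H3K4me3 cover was 6.51%, 10.4% and 8.93% in tumours, against 5.72% and 6.29% in Tg spleens and 8.51% and 13.9% in WT spleens. The means were 8.60% ± 1.94 in tumours and 8.60% ± 3.72 in spleens (exact permutation p = 0.971). Of its 17 H3K4me3 regions, 5 were in all 7 libraries. RNAPII was found at 1 of the 17, that at 61.1 to 63.3 kb, in tumours 2 and 3 and in both spleens. The same region had H3K27ac in tumours 2 and 3 and in both spleens, and Myc in all 3 tumours. H3K27ac was at 5 of the 17 in some tumour and at 4 in some spleen, and Myc at 6 in some tumour and at 1 in some spleen. Myc cover of HoxA was 1.76%, 0.376% and 3.45% in tumours, against 0.152%, 0% and 0% in Tg spleens, with no overlap (exact permutation p = 0.1, the smallest possible). H3K27ac cover of HoxA was 0%, 0.537% and 3.02% in tumours, against 2.24% in the Tg spleen and 4.20% in the WT spleen.

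HoxD had no H3K27ac and no RNAPII peak in any mouse list. Myc had 1 peak, chr2:74493950-74494837 in tumour 3, at 13.9 to 14.8 kb of the window. H3K4me3 formed 5 regions, none of them in all 7 libraries, and cover was 0%, 2.94% and 1.15% in tumours, against 2.73% and 0% in Tg spleens and 1.70% and 2.97% in WT spleens. H3K4me1 was not scarce in every list: it covered 0.709%, 3.14% and 4.77% of HoxD in tumours, against 12.3% and 0% in Tg spleens and 11.0% and 0% in WT spleens. In the spleen libraries numbered 1 these values were above those of HoxC, 11.1% in the Tg and 8.25% in the WT spleen. The promoters with an E-box printed above belong to the cluster with the fewest Myc peaks.

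Set against H3K4me3 regions genome-wide, those of the Hox windows had fewer other signals. Of the 50 regions 9 (18.0%) were in all 7 libraries, against 46.3% of 27052 merged regions over the genome. RNAPII was at 11 of the 50 in some tumour (22.0%) and at 2 in some spleen (4.00%), against genome shares of 61.0% in tumours and 39.1% in spleens. For H3K27ac the counts were 18 (36.0%) in tumours and 10 (20.0%) in spleens, with genome shares of 86.1% and 79.2%. Myc was at 23 (46.0%) in tumours and at 3 (6.00%) in spleens, with genome shares of 79.9% and 43.0%. All 5 antibodies met at 4, 10 and 4 of the 50 regions in tumours 1, 2 and 3 (8.00%, 20.0% and 8.00%), against 37.4%, 44.8% and 44.0% of the genome's regions in the same tumours. Over all the spleen libraries they met at none of the 50, against 29.2% of the genome's regions. In 1 tumour and in no spleen there were 13 Hox regions (26.0%), with 6 in HoxB, 5 in HoxC and 2 in HoxA, a share near the 22.8% of the genome. These shares describe the lists and were not tested.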

How the data were processed

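ChIP-seq of 5 antibodies was analysed from 44 peak lists. Per the submitters' processing notes, the tools were BWA 0.6.2, SAMtools and MACS 1.4.1 and the build was mm9; the deposited files list 1 peak per line with a score (from 80.01 to 3233.06), called per library by the authors. How scores were computed is not given in the file, nor which input was used for each list; scores rank peaks within a list only. Human lists and inputs were not used here. The 4 windows and the lists described were chosen with earlier results of these data known. Cover was counted in Python 3.11.15 with numpy 2.4.6 and pandas 2.3.3, and equalled that of bedtools 2.31.1 in 176 of 176 comparisons of window and list. Tumour minus spleen used exact two-sided permutation tests over libraries (scipy 1.17.1 as a check). Myc was tested against Tg spleens and the others against Tg and WT spleens pooled, so their spleen group mixes genotypes. These p-values rank the difference of group means among all assignments of libraries to groups. A tile counted as marked with at least 1 base under a peak. Regions named were, per window, the widest H3K4me3 peak of fibroblasts at 0 h and of WT spleens, the 2 merged Myc regions in the most libraries, Myc peaks new at 4 h, and H3K4me3 regions in all tumours and no spleen or the reverse; other regions were chosen after their values were seen. One gene of HoxA and the coordinates of 2 regions named by this rule are not reported here. Alternatives were peaks at or above the median score, 500-base peaks, windows widened by 20 kb, tiles with over 1000 bases covered, ratios to genome cover, equal numbers of peaks, and leaving out libraries.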

Additional observations from a re-analysis of the deposited data

How the results depend on the processing

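Of 262 alternatives, 193 kept the direction and size of the result, 46 moved it and 23 turned its direction; the cause was not tested except where a setting's own construction gives it. Leaving out 1 library at a time, tumour minus spleen over the 4 windows ranged from 0.816 to 2.24 percentage points for H3K4me3, 1.32 to 6.27 for H3K4me1, 0.564 to 1.38 for H3K27ac, 0.893 to 1.54 for RNAPII and 2.41 to 2.81 for Myc; in HoxB, looked at after seeing the data, it ranged from 1.79 to 4.95, 5.71 to 10.6, 2.13 to 6.03, 2.20 to 4.30 and 3.86 to 7.25 in the same order. The values that moved by over 1.5 times came without tumour 2 (H3K4me3 0.816, H3K27ac 0.564), WT spleen 2 (H3K4me3 2.24, H3K4me1 2.07) and Tg spleens 1 and 2 (H3K4me1 6.27 and 1.32), and in HoxB without tumour 1 (H3K4me3 1.79), tumour 2 (H3K27ac 2.13) and tumour 3 (H3K4me3 4.95, H3K27ac 6.03). Without both spleen libraries numbered 2, also chosen after seeing the data, H3K4me1 gave -2.56. Same-numbered correlations over tiles were -0.183 to 0.032 and gave no sign that library numbers pair tumours with Tg spleens. For H3K4me3 and H3K4me1 they cannot decide it. There each same-numbered value mirrors the other-numbered one, as in H3K4me1 of tumour 1 with -0.115 and 0.115. With the replicate block, tumour minus spleen was 2.33 for H3K4me3, 3.03 for H3K4me1 and 2.58 for Myc. No paired analysis was possible for H3K27ac and RNAPII, where fewer than 2 numbers are shared.

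Fibroblast minus WT spleen over the 4 windows, with every peak set to 500 bases, a setting that removes width, was -0.870 (H3K4me3), -0.580 (H3K4me1), -0.145 (H3K27ac), 0.652 (RNAPII) and 1.09 (Myc). Using peaks from the median score up it was 7.08 for H3K4me3 and 2.10 for Myc, using equal numbers of peaks 5.28 and 1.55, and 6.63 for H3K27ac, 7.13 for RNAPII and 2.72 for Myc with wider windows, which dilute the cover. The log2 ratios to genome cover were 0.78 (H3K4me3), 0.59 (H3K4me1), 2.31 (H3K27ac) and 3.54 (RNAPII); none can be had for Myc, where a spleen list has no Hox peak.

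Differences of 4 h minus 0 h in MycER cells with 500-base peaks were -0.362 for H3K4me1, 0.072 for H3K27ac, 0.145 for RNAPII and 0 for Myc, and in HoxA alone 0.313 (H3K4me3), -1.25 (H3K4me1), 0.313 (H3K27ac) and 0.625 (RNAPII). In HoxA peak numbers differed by 1, -4, 1 and 2 in that order. As log2 ratios to genome cover they were 0.014, -0.084, 0.161, -0.364 and 0.197 for H3K4me3, H3K4me1, H3K27ac, RNAPII and Myc, and in HoxA 0.037 for H3K4me3, -0.089 for H3K4me1 and 0.161 for H3K27ac. Thus the small histone changes in HoxA have no fixed direction. With wider windows RNAPII gave -3.20 and Myc 3.00, and Myc gave 4.00 from the median score up and 3.33 with equal numbers. Serum 2 h minus 0 h was 0.167 from the median score up, 0.507 with 500-base peaks, -0.51 as a log2 ratio and -0.869 with equal numbers. Tiles marked in fibroblasts only numbered 7 for H3K4me3 from the median score up, and 5 for H3K4me3 and 5 for RNAPII with equal numbers. These counts have no genome share under the same altered rules beside them.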
